A study of Mus musculus with 6 samples.

Results

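The genes described here are 58 genes of mitosis: the cyclins and kinases that start cell division, the kinetochore and spindle checkpoint genes, the kinesin motors and the proteins that shape chromosomes and split the cell. They were chosen by symbol, with earlier results of these data known, and all 58 were among the 23284 symbols of the expression table. The table covers 6 tumours grown from STS26T, 1 human malignant peripheral nerve sheath tumour cell line, injected under the skin of athymic nude mice. In 3 tumours the mice received an IgG control, and in 3 they received 2 antibodies against endoglin (ENG), TRC105 against the human and M1043 against the mouse protein. Endoglin assists receptors that bind TGF-beta and BMP ligands. Both arms were dosed into the peritoneum at 10 mg/kg, 2 times a week for 3 weeks, starting about 1 week after injection, when tumours could be felt. The labels give no age for the mice. Athymic mice lack mature T cells and keep other host cells, and those host cells are mouse. The labels name the mouse as organism, while the symbols are human, so RNA of host cells counts here only as far as mouse reads could be placed on human genes. By their description codes, IgG control 2 and 3 carry 1 shared number and so do anti-ENG 1 and 2, which may or may not mean a shared animal. The spread between tumours, and every p-value that rests on it, may therefore be partly technical or within an animal.

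Cells enter mitosis when cyclin B binds the kinase CDK1 and CDC25 phosphatases remove the phosphates that hold CDK1 back. Polo-like and Aurora kinases then build the spindle, kinesins move and sort microtubules, and kinetochores tie each chromosome to them. The spindle checkpoint holds the anaphase-promoting complex (APC/C) until every kinetochore is attached, after which securin and cyclin B are destroyed and the sister chromatids part. Most of these genes are transcribed mainly in late S phase, G2 and M phase, and so are widely used as a gauge of proliferation in tumours.

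Levels are in FPKM, fragment counts scaled for transcript length and library size, so they can be compared between genes. Total depth is unknown. The FPKM summed to 443148, 413506 and 410786 in IgG control 1, 2 and 3, and to 475146, 446100 and 457265 in anti-ENG 1, 2 and 3. Every anti-ENG sum was above every IgG sum, so results with each tumour rescaled to the same sum are also given below. Anti-ENG 1 stood apart most often, with the highest value in 3834 and the lowest in 3197 of 12586 tested genes, followed by IgG control 1 with 2696 and 2706. Among markers of the Schwann and neural crest lineage, VIM, NES and SOX9 reached a mean of 1 FPKM, while SOX10 and S100B, which define Schwann cells, had means of at most 0.1 and 0.035 FPKM in either arm. Human ENG, the target of TRC105, ran from 22.1 to 41.0 FPKM under IgG and from 15.5 to 29.5 FPKM under anti-ENG, so the arms overlapped.

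All 58 mitotic genes were expressed. Their means over the 6 tumours ran from 5.56 FPKM for ESPL1 to 142 FPKM for UBE2C, with a median of 24.8 FPKM, and 54 of them reached 10 FPKM. All 58 therefore passed the filter of a mean of 1 FPKM, together with 12586 genes in all. The 5 most abundant were UBE2C, PTTG1, SMC4, BUB3 and CDC25B, each above the 90th percentile of tested genes by level.

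In the anti-ENG tumours 56 of the 58 genes had a higher estimate than in the IgG tumours, and CDC25B and ESPL1 had a lower one, while 50 were higher with each tumour rescaled to the same sum of FPKM and 55 after cyclic loess normalization. Of all tested genes 51.2% had a higher estimate. The median of the 58 was a log2 fold change of 0.33, or 1.26-fold, on the log2(FPKM + 1) scale, where low genes show less than their full ratio, against 0.0065 for all tested genes. No single gene passed: limma called 0 of the 58 at an adjusted p under 0.05, as it called 0% of all genes in either direction. Adjusted p-values of the 58 started at 0.529. Of the members, 22 were higher and 0 lower at an unadjusted p under 0.05, where 5.56% of all tested genes were higher and 3.61% lower. The 3 anti-ENG values all lay above the 3 IgG values in 27 of the 58 genes (46.6%), against 10.6% of all tested genes, and all lay below in 0, against 6.75%. Genes outside the list with levels between the quartiles of the 58 (17.2 and 38.6 FPKM) had a median log2 fold change of 0.034, and 11.8% of these 2614 genes had anti-ENG apart and higher. With the same sum of FPKM in every tumour, which moved the median of all genes to -0.10, the list median was 0.21. The list then had 8 genes apart and higher against 3.46% of all genes. At an unadjusted p under 0.05 (limma) 3 were higher, against 1.33% of all tested genes, and 1 was lower. The share of all genes lower in this setting was not computed. The members move together in the cell cycle, are not independent of each other and were chosen with earlier results of these data known. These shares therefore describe the list and carry no p. In whole tumours, more dividing cells and more mitotic RNA per dividing cell cannot be told apart.

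**Figure D1:**
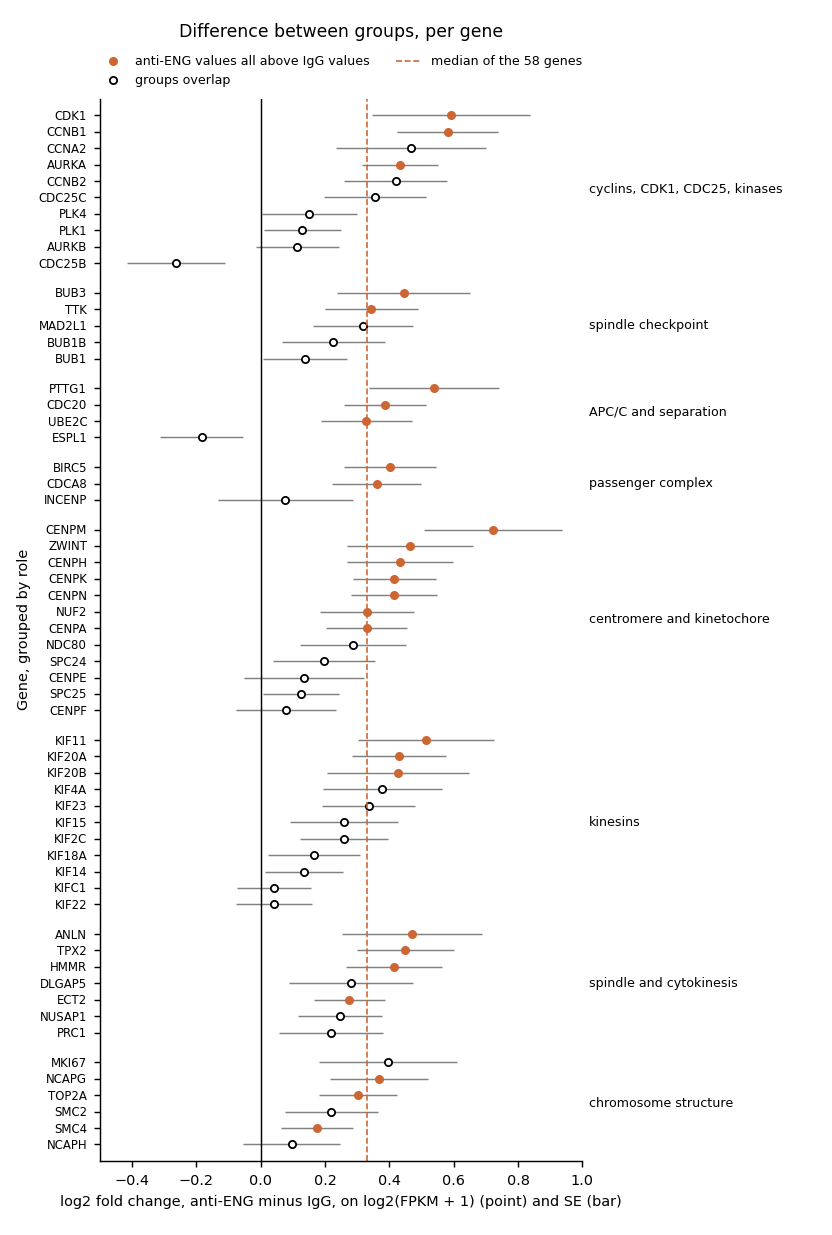
Log2 fold change (anti-ENG minus IgG, x axis, on log2(FPKM + 1)) of each of the 58 genes, grouped by role on the y axis. Points are limma estimates with bars of 1 SE, filled where the 3 anti-ENG values all lie above the 3 IgG values. CDC25B and ESPL1 alone lie left of 0, and the dashed line marks the median of 0.33.

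**Figure D2:**
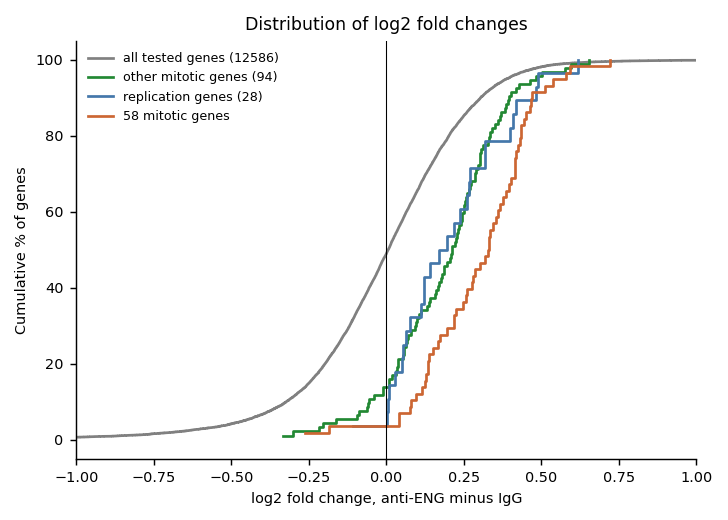
Cumulative percent of genes (y axis) against log2 fold change (x axis, anti-ENG minus IgG) for the 58 mitotic genes, 94 other mitotic genes, 28 replication genes and all 12586 tested genes. The curve of the 58 genes lies to the right, with a median of 0.33 against 0.0065 for all tested genes.

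The size of the difference varied among the genes. The log2 fold change was 0.5 or more in 5 of them (CENPM, CDK1, CCNB1, PTTG1 and KIF11), a band that held 1.9% of all tested genes. It was from 0.4 to 0.5 in 14, from 0.3 to 0.4 in 13, from 0.2 to 0.3 in 9, from 0.1 to 0.2 in 10 and from 0 to 0.1 in 5. Those nearest to 0 were INCENP, CENPF, NCAPH and the kinesin genes KIF22 and KIFC1. By role, the median log2 fold change was 0.39 for cyclins, CDK1, CDC25 phosphatases and mitotic kinases, and 0.36 for APC/C and separation genes. It was 0.36 for chromosomal passenger genes, 0.33 for centromere and kinetochore genes and 0.32 for checkpoint genes. Spindle and cytokinesis genes had 0.28, and kinesins and chromosome structure genes had 0.26 each. Differences between these roles were not tested.

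The anti-ENG arm was not uniform. Of the 58 genes 48 had their highest value in anti-ENG 1, and 36 had their lowest in IgG control 1. As a median over the genes, anti-ENG 1 lay 0.38 above each gene's mean on the log2 scale, anti-ENG 2 lay 0.094 above it, and anti-ENG 3 was at -0.017. IgG control 1, 2 and 3 were at -0.26, -0.069 and -0.12. The value in anti-ENG 1 exceeded all 3 IgG values in 53 genes, that in anti-ENG 2 did so in 48 and that in anti-ENG 3 in 32. The shares of all tested genes for these counts were not computed, so the counts only describe the order of the tumours. Anti-ENG 3 was above IgG control 2 in 34 of the 58 (52.2% of all tested genes), the closest pair between the arms. The SD of log2 levels was larger in the anti-ENG arm than in the IgG arm in 52 genes (89.7%, against 62.9% of all tested genes), with medians of 0.24 and 0.13. Without anti-ENG 1 the median log2 fold change of the list was 0.20 and 32 of the 58 estimates shrank by more than 1.5 times or turned. Without both IgG control 1 and anti-ENG 1 it was 0.17, with 50 of 58 estimates above 0, 3 genes higher at an unadjusted p under 0.05 (3.20% of all tested genes) and 28 with the arms apart (21.2% of all tested genes).

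**Figure D3:**
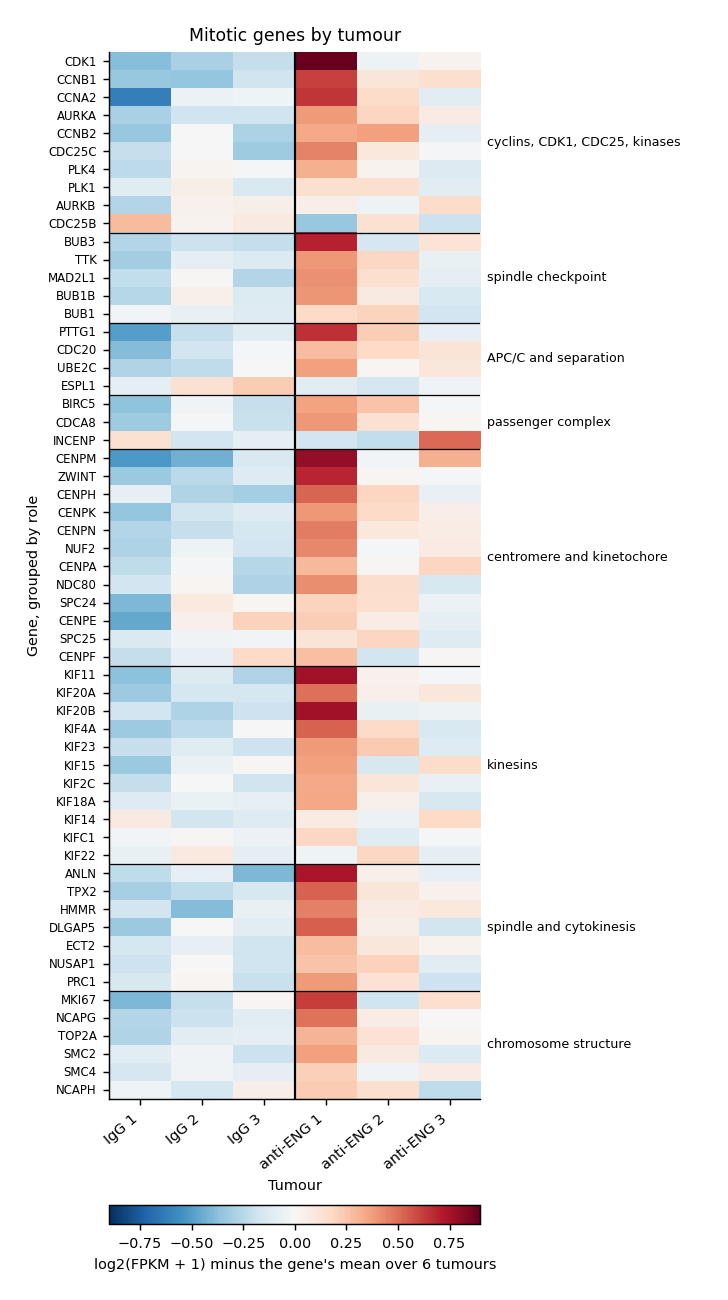
Level of each of the 58 genes (rows, grouped by role) in each of the 6 tumours (columns), as log2(FPKM + 1) minus the gene's mean over the 6 tumours. Red is above and blue below the mean. The deepest red stands in anti-ENG 1, where 48 genes were highest, and the bluest column is IgG control 1, where 36 were lowest.

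Cell type markers differed between tumours as well. The 8 fibroblast markers (DCN, LUM, COL1A1, COL1A2, COL3A1, PDGFRA, SFRP2 and FBLN1) all reached 1 FPKM. They summed to between 782 and 1474 FPKM in the IgG tumours and between 317 and 898 FPKM in the anti-ENG tumours. The sum, made up mostly of COL1A1 and COL3A1, was lowest in anti-ENG 1 and highest in IgG control 1, the tumours with the highest and lowest mitotic levels. Not every marker followed it: 6 of the 8 were lowest in anti-ENG 1 and 4 were highest in IgG control 1, while DCN had 12.9 FPKM there against 48.5 FPKM in IgG control 2, and LUM and SFRP2 were also higher in IgG control 2 than in IgG control 1. Of 6 endothelial markers 2 reached 1 FPKM, and the 6 summed to between 2.44 and 4.76 FPKM in the IgG tumours and between 2.68 and 4.16 FPKM in the anti-ENG tumours, with CDH5, VWF, KDR and CLDN5 near 0. Of 6 immune markers 2 reached a mean of 1 FPKM, CD68 and EMR1. The 6 summed to 69.7 to 124 FPKM in the IgG and 81.1 to 106 FPKM in the anti-ENG tumours. These sums were made up mostly of CD68, while PTPRC and ITGAM had means of 0.61 and 0.43 FPKM over all tumours. CD3E, a CD3 subunit that associates with the T cell receptor, was listed at 0 in all 6 tumours. Whether the RNA of these markers came from the human tumour cells or from mouse reads placed on human genes was not tested. The sums are therefore not amounts of host cells, and their relation to the mitotic result was not tested.

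Of the 10 cyclin, CDK1, CDC25 and kinase genes, 9 had a higher estimate (8 with the same sum of FPKM). CCNB1 encodes cyclin B1, which switches on CDK1 at the entry into mitosis. In the order of tumours 1, 2 and 3, which holds for all values below, its level was 43.5, 43.1 and 48.5 FPKM under IgG and 85.2, 59.7 and 61.0 FPKM under anti-ENG. Every anti-ENG tumour was above every IgG tumour. The log2 fold change was 0.58 (SE 0.16, limma adjusted p = 0.529), and 0.42 without anti-ENG 1. AURKA, the Aurora kinase of the spindle poles, had 36.7, 39.9 and 39.8 FPKM under IgG and 59.4, 51.8 and 47.7 FPKM under anti-ENG, again without overlap. Its log2 fold change was 0.43 (SE 0.12, limma adjusted p = 0.529). CCNB2, the second B-type cyclin, had 22.2, 28.3 and 23.2 FPKM under IgG and 36.3, 36.9 and 26.8 FPKM under anti-ENG. The arms overlapped, since anti-ENG 3 was below IgG control 2.

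CDK1 itself, the mitotic cyclin-dependent kinase, is described because it is the partner of cyclin B1 and was chosen after its values were seen. It had 40.9, 43.8 and 46.1 FPKM under IgG and 101, 51.9 and 54.9 FPKM under anti-ENG. The arms did not overlap, but anti-ENG 1 stood far above the other 2. The log2 fold change was 0.59 (SE 0.25, limma adjusted p = 0.529) and dropped to 0.29 without anti-ENG 1. CDC25B, a phosphatase that activates CDK1, had a lower estimate. It had 78.9, 65.8 and 68.3 FPKM under IgG and 50.8, 71.2 and 56.3 FPKM under anti-ENG. The arms overlapped through anti-ENG 2, and the log2 fold change was -0.26 (SE 0.15, limma adjusted p = 0.569). Its relative CDC25C, which also activates CDK1, had 0.36 (SE 0.16), and CCNA2, the cyclin of S phase and G2, had 0.47 (SE 0.23). Polo-like kinase PLK1 (0.13), the centriole kinase PLK4 (0.15) and AURKB (0.11), the kinase of the chromosomal passenger complex, had the smallest positive estimates of this role, each with overlapping arms.

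**Figure D4:**
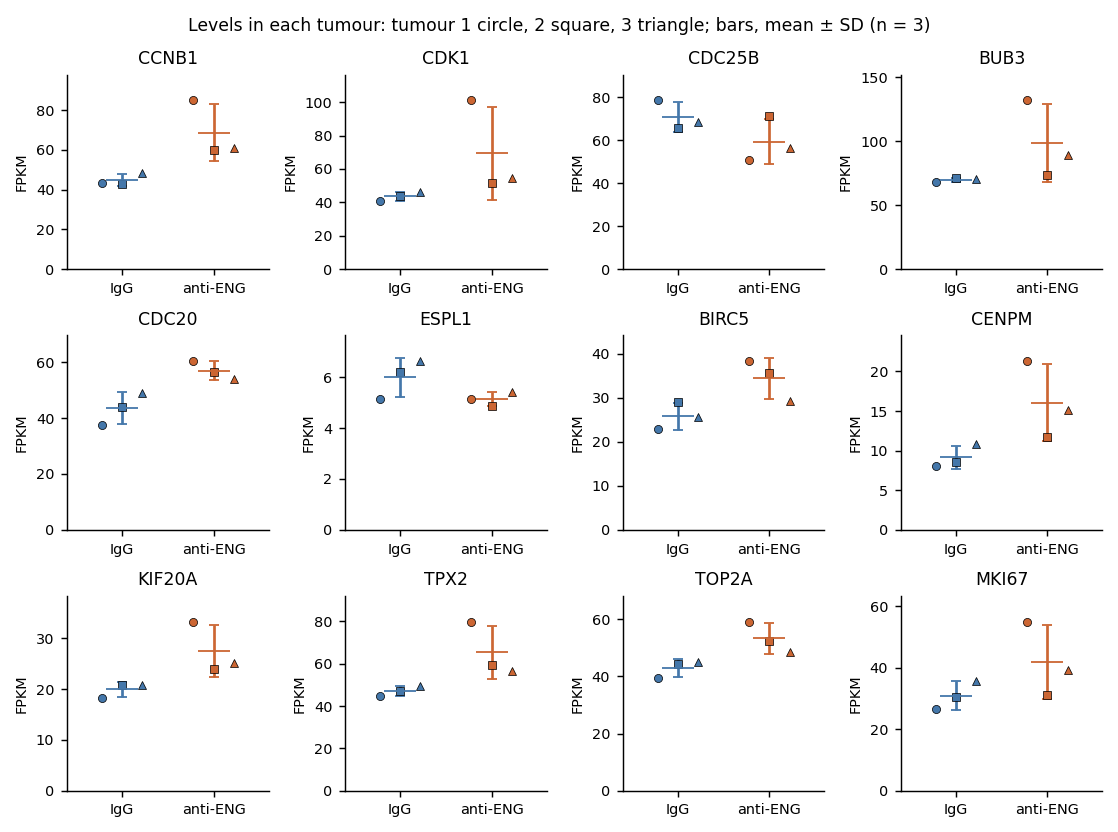
FPKM (y axes, from 0) of 12 genes in the 3 IgG and 3 anti-ENG tumours, with each tumour as a symbol and bars of the mean ± SD (n = 3); the 12 were chosen after their values were seen. Anti-ENG 1 (circle) is the highest anti-ENG value in all panels but those of CDC25B and ESPL1.

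The 5 spindle checkpoint genes all had higher estimates, 2 of them with the arms apart, against 10.6% of all tested genes apart and higher. TTK, the kinase that starts checkpoint signalling at unattached kinetochores, had 13.5, 16.0 and 15.5 FPKM under IgG and 22.5, 19.4 and 16.2 FPKM under anti-ENG, with IgG control 2 and anti-ENG 3 almost touching. BUB3, which carries BUB1 and BUB1B to the kinetochore, had 67.9, 71.2 and 70.3 FPKM under IgG and 132, 73.5 and 89.0 FPKM under anti-ENG. The IgG values lay close together (SD 1.69 FPKM, n = 3), and the anti-ENG values were spread widely (SD 30.4 FPKM, n = 3), with anti-ENG 1 on top. The log2 fold change of BUB3 was 0.44 (SE 0.21, limma adjusted p = 0.530) and 0.21 without anti-ENG 1. MAD2L1, the MAD2 protein that binds CDC20, had 38.1, 44.9 and 36.9 FPKM under IgG and 59.6, 49.6 and 41.9 FPKM under anti-ENG, with overlap. BUB1B had a log2 fold change of 0.23 and BUB1 one of 0.14.

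Of the 4 genes of the APC/C step and of chromatid separation, 3 had higher estimates with the arms apart (10.6% of all tested genes). ESPL1 had a lower estimate. CDC20, the activator of the APC/C that the checkpoint inhibits, had 37.6, 44.0 and 49.0 FPKM under IgG and 60.5, 56.4 and 54.0 FPKM under anti-ENG. Here the 3 anti-ENG tumours were close to each other. The log2 fold change was 0.39 (SE 0.13, limma adjusted p = 0.529), and 0.34 without anti-ENG 1. UBE2C, the ubiquitin-conjugating enzyme of the APC/C, had 117, 120 and 141 FPKM under IgG and 182, 143 and 151 FPKM under anti-ENG. PTTG1 encodes securin, the inhibitor of separase. It had 90.0, 110 and 118 FPKM under IgG and 201, 149 and 121 FPKM under anti-ENG, and the lowest anti-ENG value was just above the highest IgG value. Of its near-identical copies, PTTG3P was listed at 0 in all 6 tumours and PTTG2 in 5. ESPL1, the separase that cuts cohesin, had 5.14, 6.19 and 6.64 FPKM under IgG and 5.13, 4.87 and 5.40 FPKM under anti-ENG. Its log2 fold change was -0.18 (SE 0.13, limma adjusted p = 0.615), so securin had a higher and separase a lower estimate.

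The partners of AURKB in the chromosomal passenger complex, which corrects faulty attachments, split. BIRC5, or survivin, had 22.9, 28.9 and 25.5 FPKM under IgG and 38.4, 35.6 and 29.4 FPKM under anti-ENG. CDCA8, or borealin, had 14.3, 17.9 and 15.6 FPKM under IgG and 24.1, 20.0 and 18.4 FPKM under anti-ENG. Both had the arms apart, with log2 fold changes of 0.40 (SE 0.14) and 0.36 (SE 0.14). INCENP, the scaffold of the complex, had 19.0, 15.2 and 16.1 FPKM under IgG and 15.1, 14.5 and 24.9 FPKM under anti-ENG. Its highest value was in anti-ENG 3 and its lowest in anti-ENG 2, and the log2 fold change was 0.077 (SE 0.21, limma adjusted p = 0.901). It turned to -0.16 without anti-ENG 3 and to -0.038 with the same sum of FPKM.

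All 12 centromere and kinetochore genes had higher estimates (11 with the same sum of FPKM), 7 of them with the arms apart. CENPM, a subunit of the inner kinetochore network on centromeric chromatin, had the largest estimate of all 58. It had 8.04, 8.59 and 10.8 FPKM under IgG and 21.3, 11.7 and 15.2 FPKM under anti-ENG, or 0.72 on the log2 scale (SE 0.22, limma adjusted p = 0.529). Without anti-ENG 1 it was 0.51. The other subunits of that network on the list also had the arms apart. CENPK had 20.0, 22.9 and 23.7 FPKM under IgG and 34.1, 29.1 and 26.8 FPKM under anti-ENG. CENPN, which recognises the centromeric nucleosome, had 16.7, 17.4 and 18 FPKM under IgG and 28.3, 21.7 and 21.2 FPKM under anti-ENG. CENPH had a log2 fold change of 0.43, and CENPA, the histone variant that marks the centromere, had 0.33, both with the arms apart.

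The 4 subunits of the NDC80 complex, the microtubule coupler of the outer kinetochore, had unequal levels and estimates. NUF2 had the highest level, with means of 33.6 ± 2.80 FPKM under IgG and 42.9 ± 7.47 FPKM under anti-ENG (SD, n = 3 each). NDC80 had 18.7 ± 2.08 and 23.3 ± 4.69 FPKM (SD, n = 3 each), SPC25 had 14.5 ± 0.648 and 16.0 ± 1.86, and SPC24 had 11.8 ± 2.22 and 13.5 ± 1.29. The log2 fold changes were 0.33 for NUF2, 0.29 for NDC80, 0.20 for SPC24 and 0.12 for SPC25, and only NUF2 of these 4 had the arms apart. ZWINT, which links the outer kinetochore to the checkpoint, had 0.46 with the arms apart. Of the large corona proteins, CENPE, a kinesin that captures microtubules, had 0.13, close to SPC25, and CENPF had 0.080, the smallest estimate of this role. Without IgG control 1 the value of CENPE turned to -0.061 and that of CENPF to -0.0076, and without anti-ENG 1 that of CENPF turned to -0.037.

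All 11 kinesin genes had higher estimates (9 with the same sum of FPKM and 10 after cyclic loess). The arms were apart in only 3 of them, KIF20A, KIF11 and KIF20B, against 10.6% of all tested genes apart and higher. KIF20A, a motor of the central spindle and cytokinesis, had 18.3, 20.8 and 20.7 FPKM under IgG and 33.2, 24 and 25.1 FPKM under anti-ENG, or 0.43 on the log2 scale (SE 0.15, limma adjusted p = 0.529). KIF11, the Eg5 motor that pushes the spindle poles apart, had 16.2, 19.3 and 17.4 FPKM under IgG and 36.4, 21.8 and 20.9 FPKM under anti-ENG. Its log2 fold change was 0.51 (SE 0.21) and dropped to 0.26 without anti-ENG 1. KIF23, a motor of the midbody, had 24, 25.7 and 24.4 FPKM under IgG and 36.6, 32.9 and 25.7 FPKM under anti-ENG. Its arms overlapped by a margin below the printed digits.

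Among the other kinesins, the chromosome arm motor KIF4A had a log2 fold change of 0.38, the microtubule depolymerase KIF2C 0.26 and the spindle motor KIF15 0.26. KIF18A, which limits chromosome movement at the metaphase plate, had 0.17, and KIF14, a motor of cytokinesis, 0.13. KIF22, which pushes chromosomes towards the plate, had 0.041, and the minus-end motor KIFC1 had 0.042. The value of KIFC1 turned to -0.042 without anti-ENG 1, and that of KIF22 turned to -0.040 without anti-ENG 2.

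The 7 spindle and cytokinesis genes all had higher estimates, 4 with the arms apart. TPX2, the spindle protein that activates AURKA, had 44.6, 46.9 and 49.6 FPKM under IgG and 79.8, 59.4 and 56.6 FPKM under anti-ENG. HMMR, a spindle-associated hyaluronan-binding protein, had 17.4, 14.7 and 18.7 FPKM under IgG and 27.2, 20.8 and 21 FPKM under anti-ENG. ECT2, the exchange factor that activates RhoA for the cleavage furrow, had 30.2, 32.1 and 29.8 FPKM under IgG and 41.3, 36.5 and 34.6 FPKM under anti-ENG. In all 3 genes every anti-ENG tumour was above every IgG tumour, with log2 fold changes of 0.45, 0.41 and 0.28. ANLN, the anillin scaffold of the contractile ring, had 0.47 with the arms apart, and 0.22 without anti-ENG 1. The microtubule bundler PRC1 had 0.22, NUSAP1 0.25 and DLGAP5 0.28, each with overlapping arms.

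Of the 6 chromosome structure genes, 3 had the arms apart (10.6% of all tested genes) and all had higher estimates (5 with the same sum of FPKM). TOP2A, the topoisomerase that untangles sister chromatids, had 39.5, 44.4 and 45.0 FPKM under IgG and 59.2, 52.3 and 48.5 FPKM under anti-ENG, or 0.30 on the log2 scale (SE 0.12, limma adjusted p = 0.529). MKI67, the proliferation antigen Ki-67 that coats mitotic chromosomes, had 26.5, 30.6 and 35.8 FPKM under IgG and 55.0, 31.1 and 39.4 FPKM under anti-ENG. Its arms overlapped, because anti-ENG 2 lay among the IgG values, and its estimate of 0.40 (SE 0.21, limma adjusted p = 0.550) was 0.18 without anti-ENG 1. Of the condensin subunits, NCAPG had 9.34, 9.87 and 10.6 FPKM under IgG and 16.4, 12 and 11.4 FPKM under anti-ENG. The core ATPases SMC2 and SMC4 had log2 fold changes of 0.22 and 0.17, and NCAPH had 0.097. SMC4 had a level about that of BUB3, with a mean of 80.2 ± 3.21 FPKM under IgG and 90.7 ± 7.85 FPKM under anti-ENG (SD, n = 3 each).

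By the exact two-sided permutation test on single genes, 27 of the 58 reached p = 0.1, which is the smallest value that 3 tumours against 3 can give. None could therefore pass 0.05 by that test. The value is reached only where the arms do not overlap, so these are the same 27 genes already described as apart. Of all tested genes 10.6% were apart and higher and 6.75% apart and lower.

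A further 94 genes of mitosis outside this list were described for comparison, in 6 lists by role. Of these 81 had a higher and 13 a lower estimate, with a median log2 fold change of 0.21. In 34 (36.2%, against 10.6% of all tested genes) anti-ENG lay apart and higher, and in 4 apart and lower (6.75% of all tested genes). At an unadjusted p under 0.05 there were 21 higher (5.56% of all tested genes) and 2 lower (3.61% of all tested genes), and limma called 0 at an adjusted p under 0.05. The largest estimate was 0.65 (SE 0.16, limma adjusted p = 0.529) for CKS2, a small subunit that binds CDK1. Its level was 86.3, 91.3 and 87.0 FPKM under IgG and 174, 135 and 115 FPKM under anti-ENG, without overlap. CDC25A, the third CDC25 phosphatase, had 0.43, against the -0.26 of CDC25B. At the centromere OIP5, which helps to load CENPA, had 0.58, while CENPT, an inner kinetochore subunit that binds the NDC80 complex, had -0.33 with the arms apart. The APC/C subunits ANAPC11 and ANAPC10 had 0.48 and 0.31. Of the cohesin list SGOL1, the shugoshin that protects cohesin, had 0.31 and the cohesin loader NIPBL had -0.20. The condensin genes NCAPD3 and NCAPD2 had 0.25 and 0.16, and the spindle genes FAM83D and CKAP2 had 0.50 and 0.40. FOXM1 and MYBL2, transcription factors of the G2/M genes, had 0.18 and 0.23. WEE1, the kinase that inhibits CDK1, had -0.30 with the arms apart. FOXM1, MYBL2 and WEE1 were chosen after their values were seen.

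In 28 genes of DNA replication 27 had a higher estimate (96.4%, against 51.2% of all tested genes), with a median log2 fold change of 0.18, and 8 had anti-ENG apart and higher (28.6%, against 10.6% of all tested genes). Their positions by tumour are set here beside those of the 58 mitotic genes. Relative to each gene's mean, replication genes lay at 0.11, 0.090 and 0.12 on the log2 scale in anti-ENG 1, 2 and 3, while the mitotic genes lay at 0.38, 0.094 and -0.017. In IgG control 1, 2 and 3 replication genes lay at -0.11, -0.10 and -0.042. Anti-ENG 1 was the highest tumour in 11 of the 28 replication genes and in 48 of the 58 mitotic genes. The difference between the lists was not tested.

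**Figure D5:**
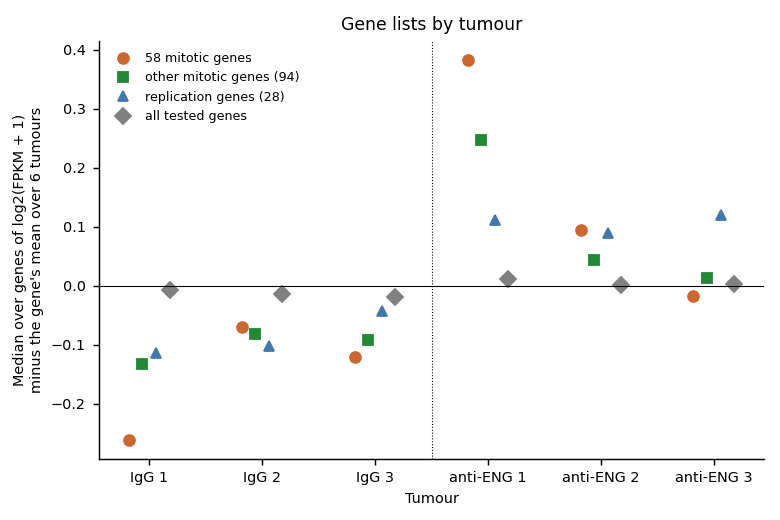
Median over genes of log2(FPKM + 1) minus the gene's mean over the 6 tumours (y axis) in each tumour (x axis), for the 58 mitotic genes, 94 other mitotic genes, 28 replication genes and all tested genes. The mitotic genes span from -0.26 in IgG control 1 to 0.38 in anti-ENG 1, and replication genes lie at 0.11, 0.090 and 0.12 in the 3 anti-ENG tumours.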

How the data were processed

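RNA was measured in 6 tumours, 3 per arm, with groups and replicate numbers taken from the sample titles. The authors deposited FPKM values, 1 column per tumour. Per the submitters' processing notes, the genome was GRCh37 (hg19) and the tools named were Cuffnorm, Cufflinks 2.2.1, TopHat2 2.0.10, Bowtie 1.0.0, FastQC 0.10.1 and SAMtools 0.1.1.9. How Cuffnorm scaled the libraries, whether strand was used and how mouse reads were treated are not stated. Per the labels' protocols, polyadenylated RNA was used, and 2 library kits are named without saying which served which sample. Reads of overlapping genes on opposite strands may therefore not be separable.

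Each of 12586 genes (mean 1 FPKM or more) was fitted on log2(FPKM + 1) by limma 3.58.1 (R 4.3.3), with trended variance and no covariates. P-values are two-sided and adjusted over all tested genes by Benjamini-Hochberg at 0.05. The step was tested on simulated data. That test required recovery only of planted changes larger than any member's estimate, so it does not show power for changes of their size. Values in all 6 tumours are given for the 3 genes of smallest p in each of 8 roles and for those with estimates below 0. Other mitotic genes are named by the 2 smallest p per list. Members, lists and roles were chosen with earlier results of these data known. Promoter motifs were not described, because a human promoter sequence was not used here. Alternatives covered pseudocount, filter, scaling, variance model, weights, blocks, averaging by code number and left-out tumours.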

Additional observations from a re-analysis of the deposited data

How the results depend on the processing

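No alternative gave a member an adjusted p under 0.05 (limma), and the list median stayed above 0 in all 19. Leaving out 1 tumour gave medians of 0.20 to 0.42 and counts at an unadjusted p under 0.05 of 7 to 32 against 22, while 2.99% to 7.55% of all tested genes passed against 5.56%. It left 27 to 47 genes apart and higher against 27, but 2 tumours against 3 separate more easily, and the share of all tested genes rose from 10.6% to between 13.3% and 18.9%. With the first tumour of each arm left out, the median was 0.17, with 3 genes higher at an unadjusted p under 0.05 (3.20% of all tested genes). With tumours of 1 code number averaged, the median was 0.32. At an unadjusted p under 0.05 (limma) 15 genes were then higher (4.04% of all tested genes). In that setting 35 genes were apart and higher (23.5% of all tested genes), but fewer values per arm separate more easily. Rescaling to the same sum moved the median of all genes to -0.10 and the list median to 0.21, or 0.31 relative to all genes. It left 3 genes higher (1.33% of all tested genes) and 1 lower at an unadjusted p under 0.05. It left 8 apart and higher (3.46% of all tested genes). Quantile normalization left 17 apart and higher (8.66% of all tested genes). Quantile normalization, cyclic loess normalization and leaving out anti-ENG 2 each left 1 member lower at an unadjusted p under 0.05 (limma). The shares of all genes lower in these settings were not computed. Cyclic loess normalization left 14 genes higher at an unadjusted p under 0.05 (3.6% of all tested genes), and sample weights left 11 (5.1%). The replicate block left 12 (3.65%). Deviations of same-numbered tumours from their arm means correlated at -0.33, 0.19 and 0.037, and not every tumour correlated best with its own number. Deviations within an arm sum to 0, so these correlations depend on each other. They cannot settle whether the titles' numbers pair the tumours.

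Some single estimates turned sign. With the same sum these were AURKB (-0.0032), INCENP (-0.038), CENPF (-0.039), KIF22 (-0.076), KIFC1 (-0.074) and NCAPH (-0.011), and after cyclic loess KIF22 (-0.0084). With sample weights these were CENPE (-0.0050) and CENPF (-0.0045). Leaving out 1 tumour gave ranges across 0 for CENPE (-0.061 to 0.27), CENPF (-0.037 to 0.18), KIF22 (-0.040 to 0.095), KIFC1 (-0.042 to 0.11) and INCENP (-0.16 to 0.21). Without both first tumours these were PLK4 (-0.050), CENPE (-0.14), CENPF (-0.12), SPC24 (-0.0041), KIFC1 (-0.042) and DLGAP5 (-0.013).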
